A study of Homo sapiens with 4 samples.

Results

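The centrosome is built from a pair of centrioles and the protein matrix around them, and 39 genes for its parts were read out in MDA-MB-231 cells with and without a knockdown of the mitotic kinase AURKA. The set holds every gene named CEP followed only by digits in the deposited tables (27 genes) and 12 genes chosen by name: PLK4, SASS6, STIL, CENPJ, NEDD1, PCNT, PCM1, CDK5RAP2, OFD1, NIN, NINL and ODF2. These are 39 of 20140 genes with a value in all 4 libraries. CEP83, CEP131, CEP162 and CEP295 stand in the files under their older names CCDC41, AZI1, KIAA1009 and KIAA1731, so the rule does not take them in. MDA-MB-231 is a triple-negative breast cancer line, and RNA was sequenced from 2 libraries of knockdown cells, titled shA, and 2 libraries of control cells, titled shC and described in the design text as mock-transfected. The design text calls the replicates biological, without saying whether they were separate cultures or days. P-values set the difference against the spread between these samples. Where the fit includes the replicate number, that spread is how far the knockdown difference varied between the numbers. Both fits draw each gene's spread toward that of genes of like level, so a p-value does not rest on the gene's own spread alone. The labels name neither the hairpin sequence nor the control construct, nor whether the cells were a pool or a clone. All 4 libraries came from the same line in the same medium.

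In a dividing cell the centrioles duplicate when the kinase PLK4, with STIL and SASS6, starts a new procentriole beside each parent. The parents gather a pericentriolar matrix of PCNT and CDK5RAP2, on which NEDD1 holds the gamma-tubulin ring complexes that nucleate microtubules. Aurora A, the product of AURKA, sits on this matrix and on spindle microtubules, is brought there by CEP192 and TPX2, promotes centrosome maturation before mitosis, and counts NEDD1 among its reported substrates.

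AURKA itself had 22.3 and 23.7 FPKM in the knockdown libraries, against 124 and 99.1 FPKM in the controls, a log2 difference of -2.22. FPKM counts fragments per unit of transcript length, scaled to the library's total, and is summed here over the annotated transcripts of a gene. Log2 differences are knockdown minus control on log2(FPKM + 1), which understates the change of low genes. The files give no read totals. From the value of a single read in long single-transcript genes, rough depths were 2.12e+07 and 2.75e+07 fragments for knockdown replicates 1 and 2, and 1.73e+07 and 2.4e+07 fragments for control replicates 1 and 2. At those depths a member rested on 82 fragments at the fewest (CEP19, control replicate 1) and 11387 at the most (NIN, knockdown replicate 2), with a median of 1238. VIM and CD44 were high in every library (VIM 1701 to 2068 FPKM), while PGR, CDH1 and PTPRC stayed under 0.1 FPKM and ESR1 under 0.3 FPKM. The epithelial marker EPCAM was between 2.49 and 3.30 FPKM. Knockdown and control libraries of the same replicate number share row order and transcript set, which differ between the numbers. Each number is read here as a run of quantification. The labels do not say that the numbers pair the libraries, nor whether those of a number were cultured or sequenced together. Tests are therefore given from a fit without the run and from a fit with the run as a term. Standard errors and 95% intervals are those of the fit without the run. The intervals are not adjusted for the number of genes tested. Replicates 1 and 2 of each gene can be read as runs 1 and 2.

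Expression of the centrosome genes as a set was nearly level between knockdown and control. All 39 passed the filter of at least 1 FPKM in at least 2 libraries. Their summed level was 788 and 815 FPKM in the knockdown and 826 and 786 FPKM in the controls, so that the groups overlapped. The median log2 difference was -0.004 over the 39 genes (-0.05 in run 1 and 0.09 in run 2), beside 0.01 over all 12137 tested genes (-0.007 and 0.03). Of the 39, 18 lay above 0 and 21 below, and 37 (94.9%) lay within 0.3 of 0 on the log2 scale, as did 81.1% of all tested genes. The exceptions were NEDD1 and CEP128, both lower in the knockdown.

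Limma with Benjamini-Hochberg adjustment over all tested genes called 0 of the 39 at an adjusted p under 0.05 without the run, where it called 0% of all genes, and 1 member and 777 genes in all had an unadjusted p under 0.05. With the run as a term NEDD1 fell, which is 1 of 39 (2.56%) where 1.92% of all tested genes fell. With that term 0 members rose, where 1.60% of all tested genes did. Both knockdown libraries lay below both controls for 5 members (among them NEDD1, CDK5RAP2, CEP128 and CEP19; 12.8%, beside 16.6% of all tested genes). They lay above both controls for 5 others (PCM1, CEP350, PCNT, PLK4 and NINL; 12.8%, beside 19.4%). Neither share exceeded the background.

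**Figure D1:**
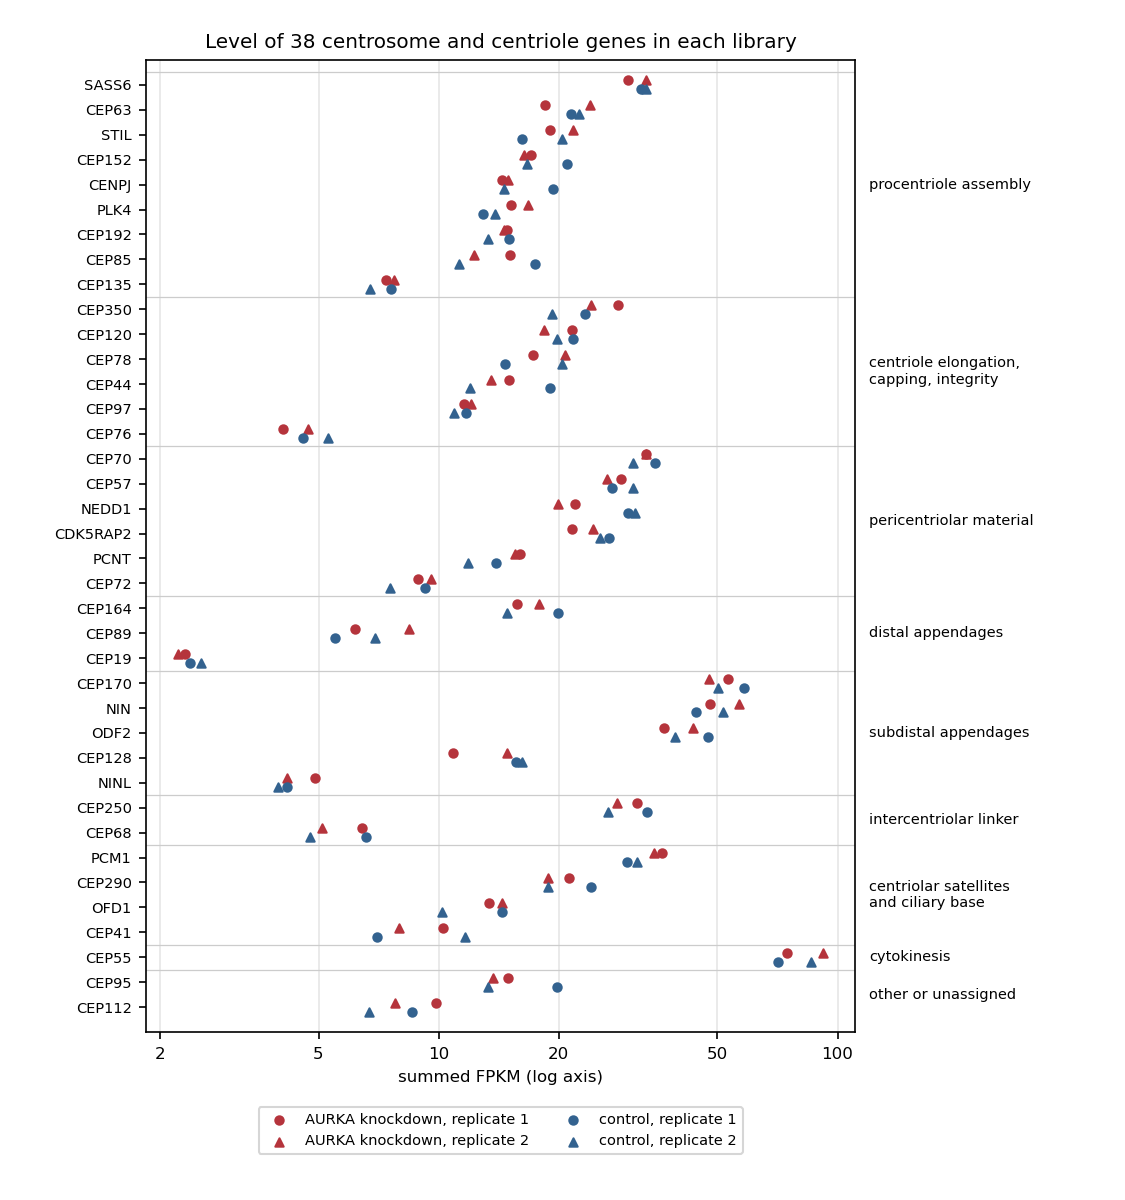
Level of 38 of the 39 genes in each library, as summed FPKM on a log axis, grouped by role. Red symbols are knockdown and blue symbols control libraries, with circles for replicate 1 and triangles for replicate 2. Red and blue symbols interleave for 29 genes, while NEDD1 stands apart with 21.98 and 19.95 FPKM in the knockdown and 29.8 and 31.1 FPKM in the controls.

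Levels differed far more between the genes than between the groups. On the length-normalised FPKM scale CEP55 was highest, with 74.8 and 91.8 FPKM in the knockdown and 70.7 and 85.6 FPKM in the controls. CEP170, NIN and ODF2 came next, between 36.7 and 58.2 FPKM. CEP170 and NIN overlapped each other, so their order is not set. CEP19 was lowest, at 2.32 and 2.23 FPKM in the knockdown and 2.38 and 2.54 FPKM in the controls, and NINL and CEP76, which overlapped each other, stood next above it at 3.95 to 5.29 FPKM.

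Genes that start a procentriole did not pass the test in either fit, and they differed in direction. PLK4, the kinase that triggers duplication (ENSG00000142731, chromosome 4, 128802016 to 128820350 in GRCh37), had 15.2 and 16.7 FPKM in the knockdown, against 12.9 and 13.9 FPKM in the controls. Both knockdown libraries lay above both controls. The log2 difference was 0.21 in run 1 and 0.26 in run 2, overall 0.23 (standard error 0.14, 95% interval -0.12 to 0.59). The limma adjusted p was 0.852 without the run and 0.234 with it. Part of the size rests on ENST00000508113, a transcript of 596 bases. It had 1.18 and 2.07 FPKM in the knockdown and 0.081 and 0.669 FPKM in the controls. The leading transcript (ENST00000270861) overlapped between the groups, at 8.18 and 12.7 FPKM in the knockdown and 9.41 and 10.3 FPKM in the controls. In transcripts of 1000 bases or more the log2 difference of PLK4 was 0.13, with both knockdown libraries still above both controls. STIL, the PLK4 partner that brings in SASS6, had 19.0 and 21.7 FPKM in the knockdown and 16.2 and 20.4 FPKM in the controls, and the groups overlapped (0.22 and 0.09 within the runs, overall log2 0.15, standard error 0.17, limma adjusted p 0.921 without the run and 0.400 with it, the order of all later pairs of p). SASS6, which forms the hub of the cartwheel, was at 29.9 and 33.1 FPKM in the knockdown and at 32.1 and 33.1 FPKM in the controls, a difference of -0.05.

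The scaffolds and wall components of the new centriole overlapped between the groups and had no shared direction. CENPJ, which sets the length of centriolar microtubules, had 14.4 and 14.9 FPKM in the knockdown, against 19.3 and 14.6 FPKM in the controls. Control replicate 1 alone was high. Its log2 difference was -0.40 in run 1 and 0.03 in run 2 (overall -0.19, standard error 0.18, limma adjusted p 0.913 and 0.433). CEP152, which recruits PLK4, showed the same layout with 17.1 and 16.4 FPKM in the knockdown and 21.0 and 16.7 FPKM in the controls. CEP192, which recruits both PLK4 and Aurora A, had 14.9 and 14.6 FPKM in the knockdown and 15.0 and 13.3 FPKM in the controls. Here the groups overlapped, and the log2 difference was 0.06, with a 95% interval of -0.30 to 0.41. CEP63, the partner of CEP152, had 18.5 and 24.0 FPKM in the knockdown and 21.5 and 22.6 FPKM in the controls. CEP135, which ties the cartwheel to the wall, had 7.38 and 7.73 FPKM in the knockdown and 7.58 and 6.73 FPKM in the controls. CEP85, a STIL-binding protein, had 15.1 and 12.3 FPKM in the knockdown and 17.4 and 11.3 FPKM in the controls.

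Among the genes for elongation, capping and integrity of the centriole, CEP350 had the highest positive difference of any member. This large microtubule-binding centriolar protein (ENSG00000135837, chromosome 1, 179923873 to 180084015) had 28.2 and 24.1 FPKM in the knockdown, against 23.2 and 19.2 FPKM in the controls. Both knockdown libraries were above both controls, with 0.27 in run 1 and 0.31 in run 2. The overall log2 difference was 0.29 (standard error 0.16, 95% interval -0.11 to 0.69), and the limma adjusted p was 0.835 without the run and 0.130 with it. Most of the FPKM difference in each run sat on a short annotated transcript of 392 bases (ENST00000357434). This transcript had 8.97 and 5.52 FPKM in the knockdown and 5.91 and 2.80 FPKM in the controls. The transcript of 13491 bases (ENST00000367607) had 15.2 and 15.9 FPKM in the knockdown and 14.5 and 14.8 FPKM in the controls. Summed over transcripts with a GENCODE 29 length of 1000 bases or more, an alternative chosen after seeing the data that also drops transcripts with no such length, the log2 difference of CEP350 was 0.12.

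The further genes of this role that are described here lay between -0.14 and 0.12 on the log2 scale. CEP120, which promotes elongation with CENPJ, had 21.6 and 18.3 FPKM in the knockdown and 21.8 and 19.8 FPKM in the controls, with overlap. CEP76, which restrains reduplication, was the lowest of the role at 4.07 and 4.71 FPKM in the knockdown and 4.57 and 5.29 FPKM in the controls, 0.14 lower in each run. CEP97, which caps the centriole together with CCP110, had 11.6 and 12.1 FPKM in the knockdown and 11.7 and 10.9 FPKM in the controls. CEP44 and CEP78 overlapped between the groups as well, with log2 differences of -0.08 and 0.12.

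In the pericentriolar material NEDD1 was lower and PCNT higher in value. NEDD1, the adaptor that anchors gamma-tubulin complexes at the centrosome and in the spindle (ENSG00000139350, chromosome 12, 97301001 to 97347129), had 21.98 and 19.95 FPKM in the knockdown, against 29.8 and 31.1 FPKM in the controls. Both knockdown libraries lay below both controls. The means were 21.0 ± 1.4 FPKM in the knockdown and 30.4 ± 0.98 FPKM in the controls (SD, n = 2 each), so that the knockdown mean was 0.688 of the control mean. The log2 difference was -0.52 (standard error 0.13, 95% interval -0.84 to -0.20), and it was -0.42 in run 1 and -0.62 in run 2. In limma the adjusted p was 0.537 without the run and 0.0396 with it. The call with the run as a term is lost with a pseudocount of 0.1 (limma adjusted p 0.0544) and with no filter on low values (0.183, where 0 genes passed in all). At the rough depths NEDD1 rested on 1381 and 1677 fragments in the knockdown and 1560 and 2053 in the controls, a counting error of 2.7% at the fewest.

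The deposited values divide NEDD1 over 9 annotated transcripts, and the division shifted between libraries. The longest (ENST00000266742, 4046 bases) had 10.8 and 7.23 FPKM in the knockdown and 11.5 and 9.67 FPKM in the controls, with overlap. ENST00000411739 (2490 bases) had 6.38 and 4.83 FPKM in the knockdown, against 6.89 and 8.11 FPKM in the controls, without overlap. Minor transcripts made up the rest, such as ENST00000429527 with 0 and 0.655 FPKM in the knockdown and 0.985 and 4.40 FPKM in the controls. ENST00000457368 had 0.634 and 3.74 FPKM in the knockdown and 3.99 and 1.67 FPKM in the controls. ENST00000557644 had 0.508 and 2.00 FPKM in the knockdown and 3.92 and 1.18 FPKM in the controls. The last named pair was lower in the knockdown in run 1 and higher in run 2. No single transcript made up most of the difference in both runs. Summed over transcripts of 1000 bases or more, NEDD1 had 18.4 and 18.5 FPKM in the knockdown, against 27.3 and 25.0 FPKM in the controls (log2 -0.48, limma adjusted p 0.455 without and 0.0166 with the run).

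**Figure D2:**
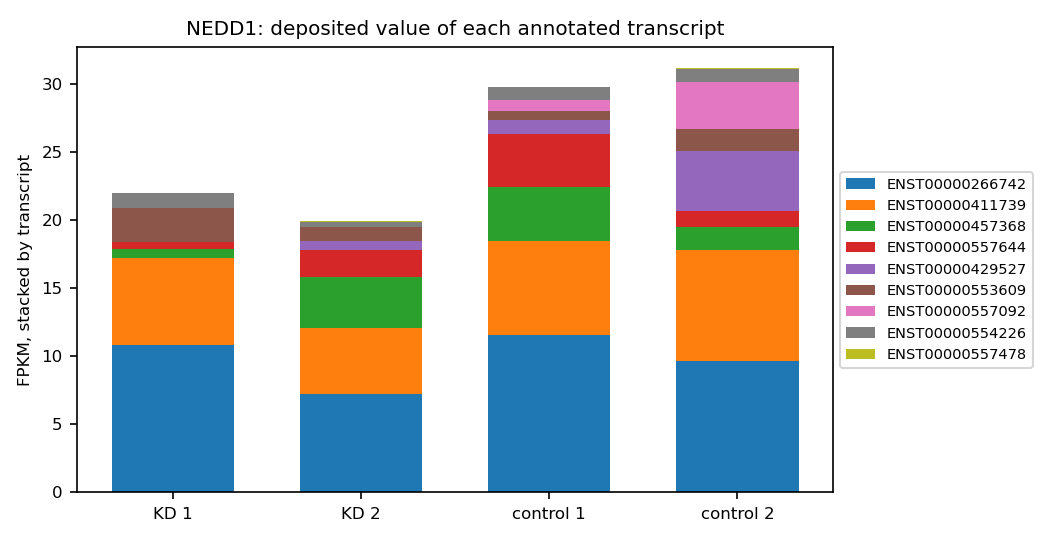
Deposited FPKM of each annotated NEDD1 transcript, stacked to the gene's value, in knockdown replicates 1 and 2 and control replicates 1 and 2. The stacks reach 21.98 and 19.95 FPKM in the knockdown and 29.8 and 31.1 FPKM in the controls, and the share of the longest transcript ranges from 31.1% to 49.3%.

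PCNT, the pericentrin scaffold (ENSG00000160299, chromosome 21, 47744036 to 47865682), had 16.03 and 15.5 FPKM in the knockdown, against 13.9 and 11.8 FPKM in the controls, so both knockdown libraries were above both controls. On the log2 scale it was 0.19 and 0.36 higher within the runs, overall 0.28 (standard error 0.15, 95% interval -0.10 to 0.65), with a limma adjusted p of 0.825 without the run and 0.196 with it. In each library 93.9% or more of its value sat on a single long transcript. CDK5RAP2, the activator of gamma-tubulin complexes, had 21.6 and 24.4 FPKM in the knockdown and 26.8 and 25.4 FPKM in the controls. Its libraries did not overlap, but the difference was small in run 2 (-0.30 and -0.06; overall -0.18, standard error 0.13, limma adjusted p 0.884 and 0.348), and in transcripts of 1000 bases or more the groups overlapped. CEP57, a pericentrin partner, had 28.6 and 26.4 FPKM in the knockdown and 27.2 and 30.7 FPKM in the controls. CEP72 had 8.89 and 9.58 FPKM in the knockdown and 9.23 and 7.57 FPKM in the controls. CEP70, a gamma-tubulin-binding protein, had 33.2 and 33.1 FPKM in the knockdown and 34.8 and 30.6 FPKM in the controls. In each of these last 3 genes the groups overlapped.

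The gamma-tubulin ring complex, which NEDD1 anchors, was read from a list of 10 genes outside the 39. The list was chosen with earlier results of these data known. With the run as a term 0 of the 10 rose and 1 fell, where 1.60% of all tested genes rose and 1.92% fell. The gene that fell was MZT1, a small protein that docks the complex to its anchors (ENSG00000204899, chromosome 13, 73282495 to 73301825). MZT1 had 17.7 and 17.5 FPKM in the knockdown, against 33.3 and 32.5 FPKM in the controls. Means were 17.6 ± 0.14 FPKM in the knockdown and 32.9 ± 0.54 FPKM in the controls (SD, n = 2 each), so that the knockdown mean was 0.534 of the control mean. The log2 difference was -0.87 (standard error 0.12), with -0.88 in run 1 and -0.86 in run 2, and the limma adjusted p was 0.299 without the run and 0.00835 with it. MZT1 has 1 annotated transcript, so its value does not depend on the division among isoforms. The call is lost with no filter on low values (limma adjusted p 0.120 with the run).

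TUBGCP4, a ring subunit named here after its values were seen, had 10.8 and 9.94 FPKM in the knockdown, against 15.0 and 14.2 FPKM in the controls. Its groups did not overlap, yet it did not pass (-0.44 and -0.47 within the runs, overall log2 -0.46, standard error 0.14, limma adjusted p 0.628 and 0.0671). It passed with the run as a term under median-of-ratios scaling (limma adjusted p 0.0320) and in transcripts of 1000 bases or more (0.0250). It did not pass with that term under a pseudocount of 0.1, a 5 FPKM filter, no filter, or transcripts shared by all 4 libraries. The settings where it passed called 499 and 443 genes lower in all, against 233 with the run as a term alone. TUBG1, the main gamma-tubulin, was at 81.5 and 79.4 FPKM in the knockdown, against 88.0 and 91.4 FPKM in the controls, a log2 difference of -0.15, and its locus in the files is joined with that of FAM134C. The other ring subunits TUBGCP2, TUBGCP3, TUBGCP5 and TUBGCP6 overlapped between the groups, as did TUBG2, MZT2A and MZT2B. MZT2A and MZT2B are near-identical copies whose reads can be split between them. The median over the 10 genes was 0.01, the same as over all tested genes.

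**Figure D3:**
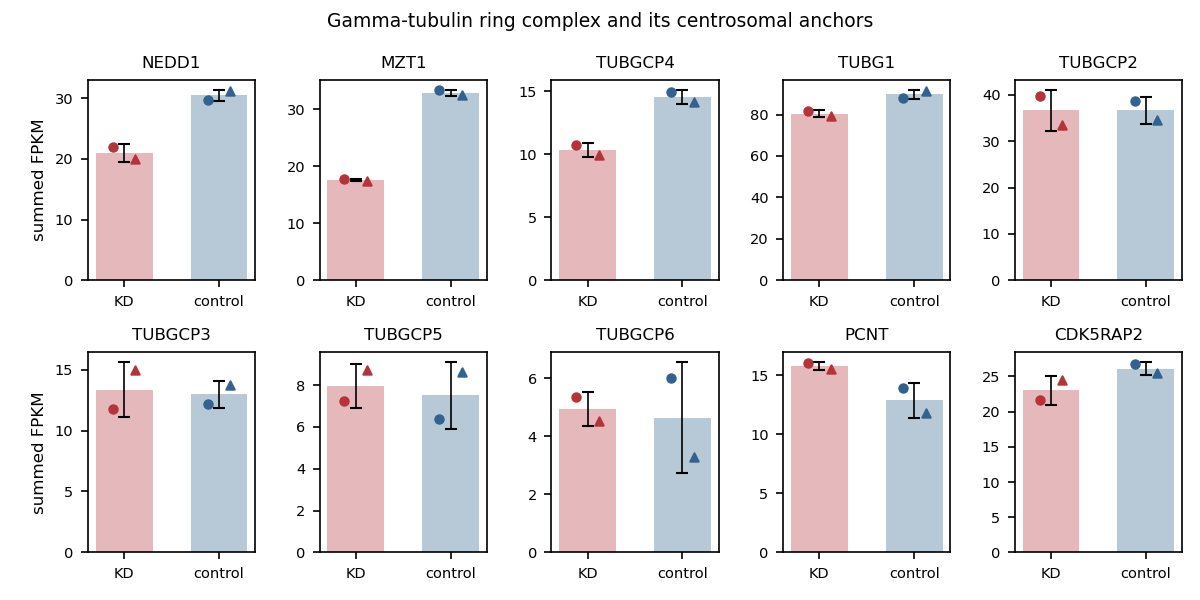
Summed FPKM of NEDD1, 7 genes of the gamma-tubulin ring complex and the anchors PCNT and CDK5RAP2, with knockdown left and control right in each panel. Bars are means, whiskers SD (n = 2 each), circles replicate 1 and triangles replicate 2, and each axis starts at 0. NEDD1, MZT1, TUBGCP4, TUBG1 and CDK5RAP2 lie lower in both knockdown libraries than in both controls and PCNT higher, while TUBGCP2, TUBGCP3, TUBGCP5 and TUBGCP6 overlap.

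Promoters are printed for NEDD1 and MZT1, which fell with the run as a term, beside those of PLK4, which starts duplication, and CEP55, the most abundant member. Each is the RefSeq window of 250 bases before to 50 after the start nearest to the gene's leading transcript, 5′ to 3′ (GRCh38.p14): NEDD1 at chr12:96907007-96907306, plus strand, MZT1 at chr13:72727580-72727879, minus strand, PLK4 at chr4:127880643-127880942, plus strand and CEP55 at chr10:93496362-93496661, plus strand. Capitals mark 3 motifs on either strand, so that TTCAAA and CCGCCC are matches read in reverse complement: TTTGAA (the core of the cell cycle homology region, CHR, of late cell cycle genes), CCAAT (bound by the factor NF-Y) and GGGCGG (the GC box bound by Sp factors). No marked match overlaps another. These RefSeq starts lie 20 to 58 bases from the GENCODE 29 start of the leading transcript. A stretch just after the RefSeq start was found in the GENCODE 29 transcripts of NEDD1, MZT1 and PLK4 but not in those of CEP55, so positions for CEP55 hold for the RefSeq start alone.
NEDD1: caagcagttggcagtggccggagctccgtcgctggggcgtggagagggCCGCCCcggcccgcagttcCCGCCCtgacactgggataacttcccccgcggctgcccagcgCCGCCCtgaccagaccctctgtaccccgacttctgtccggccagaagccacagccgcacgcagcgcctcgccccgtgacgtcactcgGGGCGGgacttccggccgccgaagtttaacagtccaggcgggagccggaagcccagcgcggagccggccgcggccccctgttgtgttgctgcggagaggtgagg
MZT1: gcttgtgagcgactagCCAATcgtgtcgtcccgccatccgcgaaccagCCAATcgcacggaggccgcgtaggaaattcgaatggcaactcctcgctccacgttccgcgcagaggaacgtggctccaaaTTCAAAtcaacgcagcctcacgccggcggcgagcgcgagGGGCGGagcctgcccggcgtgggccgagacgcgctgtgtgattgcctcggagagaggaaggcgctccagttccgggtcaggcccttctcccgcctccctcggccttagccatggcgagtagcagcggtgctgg
PLK4: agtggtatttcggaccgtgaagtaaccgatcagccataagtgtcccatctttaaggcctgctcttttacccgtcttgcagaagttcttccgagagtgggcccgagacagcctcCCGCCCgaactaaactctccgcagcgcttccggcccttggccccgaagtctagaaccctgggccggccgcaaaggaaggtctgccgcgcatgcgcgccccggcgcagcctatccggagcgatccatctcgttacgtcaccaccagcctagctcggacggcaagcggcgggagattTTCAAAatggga
CEP55: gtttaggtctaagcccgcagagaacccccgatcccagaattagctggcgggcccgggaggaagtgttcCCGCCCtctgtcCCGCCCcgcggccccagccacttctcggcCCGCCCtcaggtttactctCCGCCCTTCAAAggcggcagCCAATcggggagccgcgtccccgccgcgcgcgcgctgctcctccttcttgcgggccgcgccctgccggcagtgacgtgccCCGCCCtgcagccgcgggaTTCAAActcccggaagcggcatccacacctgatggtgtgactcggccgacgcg

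The promoters of the genes that fell differ in these letters. NEDD1 holds the GC box 4 times, between 202 and 54 bases before the start, and neither of the other motifs, whereas MZT1 holds CCAAT 234 and 202 bases before the start, TTTGAA 122 bases before it and a GC box 83 bases before it. CEP55 holds TTTGAA 116 and 3 bases before its start, CCAAT 102 bases before it and GC boxes 182, 170, 141, 122 and 22 bases before it. PLK4 holds TTTGAA 39 bases after its start and a GC box 137 bases before it. RefSeq windows were matched for 34 of the 39 members. TTTGAA stood in 11 of the 34 (32.4%), beside 10.6% of 14196 windows of tested genes and 15.2% of all 35116 windows. CCAAT stood in 15 (44.1%, beside 34.9% and 34.6%) and GGGCGG in 24 (70.6%, beside 66.3% and 45.0%). Each member has a single window, nearest its leading transcript, whereas both backgrounds count every window of a gene. The shares are thus not of like units. These are counts of letters and not of bound sites.

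Appendage genes, which dock the parent centriole to membrane or anchor its microtubules, did not pass in either fit. CEP128, a subdistal appendage protein, had 10.8 and 14.8 FPKM in the knockdown, against 15.6 and 16.2 FPKM in the controls, with knockdown replicate 1 lowest. The log2 difference was -0.31 (standard error 0.18), with -0.49 in run 1 and -0.12 in run 2 (limma adjusted p 0.854 and 0.210). Much of the run 1 gap sat on ENST00000327841, which has no GENCODE 29 length and had 0.843 and 0.316 FPKM in the knockdown, against 5.09 and 0.846 FPKM in the controls. In transcripts of 1000 bases or more, a sum that leaves this transcript out along with the short ones, the groups overlapped and the log2 difference was 0.05. Its locus in the files is joined with that of TSHR. NIN, which anchors microtubule minus ends, had 47.9 and 56.6 FPKM in the knockdown and 44.1 and 51.7 FPKM in the controls, 0.12 and 0.13 higher within the runs but overlapping across them (log2 0.12, standard error 0.15, limma adjusted p 0.935 and 0.415).

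CEP170, a microtubule-binding protein at about the level of NIN, had 53.1 and 47.5 FPKM in the knockdown and 58.2 and 50.1 FPKM in the controls. ODF2, which is needed for both kinds of appendage, had 36.7 and 43.5 FPKM in the knockdown and 47.3 and 39.1 FPKM in the controls. Both sets overlapped. NINL, the paralog of NIN, was the lowest of the subdistal genes at 4.90 and 4.17 FPKM in the knockdown, against 4.17 and 3.95 FPKM in the controls. Its lower knockdown value exceeded the higher control value by under 0.01 FPKM.

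CEP89, of the distal appendages, had 6.18 and 8.44 FPKM in the knockdown and 5.49 and 6.95 FPKM in the controls. It was 0.15 and 0.25 higher within the runs and overlapped across them (overall log2 0.20, standard error 0.21, limma adjusted p 0.921 and 0.394). CEP164, which recruits the kinase that starts ciliogenesis, had 15.7 and 17.9 FPKM in the knockdown and 19.9 and 14.8 FPKM in the controls. Here the direction turned between the runs (-0.32 and 0.26). CEP19 was a little lower in both knockdown libraries, by 0.03 in run 1 and 0.13 in run 2, beside a counting error of 11.0% at the fewest of its 82 to 135 rough fragments per library.

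The members that belong to the linker between the parent centrioles were level. CEP250, a linker protein, had 31.5 and 28.0 FPKM in the knockdown and 33.4 and 26.6 FPKM in the controls. CEP68 had 6.43 and 5.10 FPKM in the knockdown and 6.57 and 4.76 FPKM in the controls. For both, the groups overlapped and replicate 1 was above replicate 2 in either group.

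Of the satellite and ciliary base genes PCM1, the scaffold of centriolar satellites (ENSG00000078674, chromosome 8, 17780349 to 17885478), was higher in both knockdown libraries. It had 36.2 and 34.7 FPKM in the knockdown, against 29.6 and 31.5 FPKM in the controls, or 0.28 and 0.14 on the log2 scale within the runs and 0.21 overall (standard error 0.12, 95% interval -0.09 to 0.51). The limma adjusted p was 0.847 without the run and 0.227 with it. OFD1, which limits centriole length, had 13.4 and 14.4 FPKM in the knockdown and 14.4 and 10.2 FPKM in the controls, with control replicate 2 lowest. CEP290, of the ciliary transition zone, had 21.2 and 18.8 FPKM in the knockdown and 24.0 and 18.8 FPKM in the controls. Neither OFD1 nor CEP290 separated the groups.

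CEP41, needed for tubulin glutamylation in cilia, gave opposite differences in the runs. It had 10.2 and 7.96 FPKM in the knockdown and 7.02 and 11.6 FPKM in the controls, 0.49 in run 1 and -0.49 in run 2. Most of this sat on a short transcript of 557 bases (ENST00000477003), which had 5.28 and 1.13 FPKM in the knockdown and 0.693 and 3.89 FPKM in the controls. In transcripts of 1000 bases or more CEP41 had 4.36 and 6.26 FPKM in the knockdown and 4.51 and 7.25 FPKM in the controls, -0.04 and -0.18 within the runs.

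CEP55, which directs the final cut between daughter cells and is not a core centriole part, overlapped between the groups (log2 0.09, 95% interval -0.32 to 0.50). Within the runs it was 0.08 and 0.10 higher. CEP112 had 9.87 and 7.78 FPKM in the knockdown and 8.56 and 6.70 FPKM in the controls (log2 0.19, standard error 0.20, limma adjusted p 0.921 and 0.392). CEP95 had 14.9 and 13.7 FPKM in the knockdown and 19.8 and 13.3 FPKM in the controls, and its locus is joined with that of the abundant gene DDX5 in the files.

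Further centrosome genes outside the 39 were mostly level too. Beside the counts for these lists, 1.92% of all tested genes fell and 1.60% rose with the run as a term. Of 18 genes of centriole assembly, length and capping 0 passed, the nearest being HYLS1, at 14.2 and 17.7 FPKM in the knockdown and 9.71 and 14.7 FPKM in the controls (limma adjusted p 0.854 and 0.119), and POC1A, at 13.8 and 14.2 FPKM in the knockdown and 9.87 and 13.02 FPKM in the controls (0.854 and 0.233). Of 13 appendage and linker genes 11 were tested and 0 passed. CCDC68, a subdistal appendage protein, had 3.52 and 3.94 FPKM in the knockdown, against 5.45 and 6.99 FPKM in the controls (-0.51 and -0.69 within the runs, overall log2 -0.60, limma adjusted p 0.643 and 0.0635). It passed with the run as a term under median-of-ratios scaling (limma adjusted p 0.0289) and in transcripts of 1000 bases or more (0.0264). In no other setting with that term did it pass. CCDC41, the distal appendage gene also called CEP83, had 7.82 and 9.65 FPKM in the knockdown and 7.33 and 6.46 FPKM in the controls (limma adjusted p 0.851 and 0.277).

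Of 13 genes in the satellite list 0 passed. That list includes HAUS6, a subunit of the augmin complex that recruits gamma-tubulin to spindle microtubules. HAUS6 had 19.2 and 24.5 FPKM in the knockdown, against 26.6 and 29.5 FPKM in the controls (-0.45 and -0.26 within the runs, log2 -0.36 over both, limma adjusted p 0.796 and 0.0970). FGFR1OP, a centriolar partner of CEP350, had 14.04 and 16.2 FPKM in the knockdown, against 11.6 and 12.7 FPKM in the controls (log2 0.30, limma adjusted p 0.822 and 0.161). Both separated the groups without passing. Of 19 AURKA-linked spindle pole genes AURKA alone fell with the run as a term (limma adjusted p 0.0822 without and 0.000633 with it), and 0 rose. TACC2, of a family of spindle proteins that Aurora A acts on, is named after its values were seen and had 27.3 and 29.3 FPKM in the knockdown, against 22.2 and 20.8 FPKM in the controls (log2 0.38, limma adjusted p 0.671 and 0.0810). It passed, as higher, with the run as a term in transcripts of 1000 bases or more (0.0310) and missed under median-of-ratios scaling (0.0512). The list medians lay between -0.08 and 0.01.

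Many centrosome transcripts vary with the cell cycle, and its markers overlapped between the groups or were lower in the knockdown. CDK1 had 91.8 and 103 FPKM in the knockdown, against 121 and 116 FPKM in the controls, and CCNA2 had 32.2 and 32.6 FPKM in the knockdown, against 41.3 and 35.6 FPKM in the controls. MKI67, TOP2A, CCNB1, PCNA, MCM2 and CCNE2 overlapped between the groups, and 0 of the 8 passed in either fit (list median -0.06). Their part in the values of the members was not tested. In bulk RNA, fewer cells in a given cycle phase and less RNA per cell cannot be told apart.

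Differences between the replicate numbers were at least as large as those between knockdown and control. Within a run the median absolute log2 difference of knockdown against control over the members was 0.14 (0.16 over all tested genes). Within a group, the median absolute difference of replicate 2 against replicate 1 was 0.18 (0.20 over all tested genes). CEP41 was 0.65 higher in control replicate 2 than in control replicate 1, while CEP44, CEP85 and CEP95 gave -0.63, -0.59 and -0.54 for the same pair. The knockdown difference had the same sign in both runs for 22 of the 39 members (56.4%), beside 67.1% of all tested genes. The 17 that changed sign included CENPJ, CEP164, CEP192, CEP250, ODF2, OFD1 and CEP41.

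**Figure D4:**
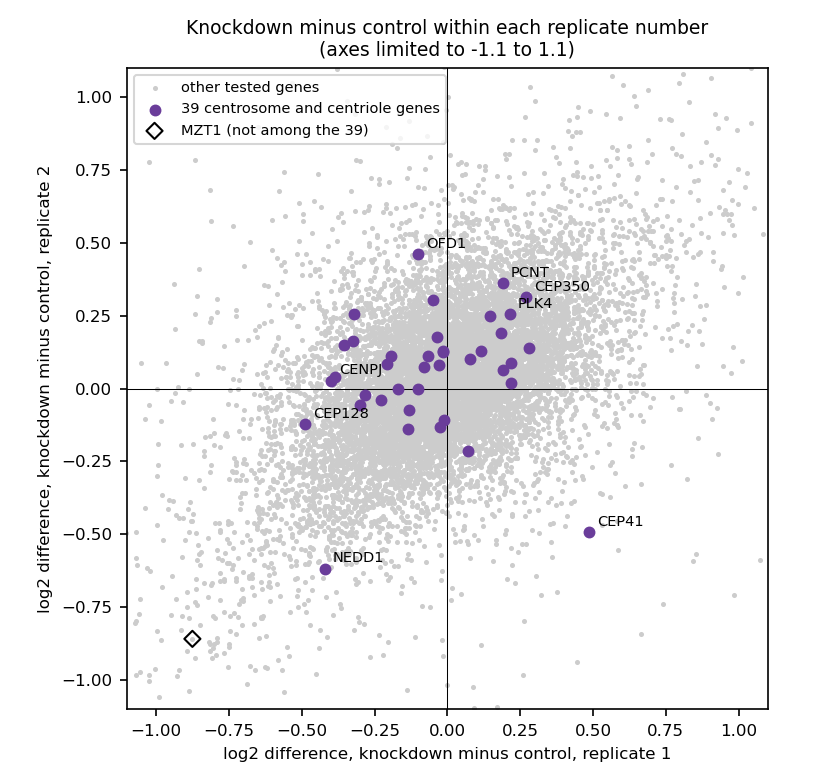
Log2 difference of knockdown minus control in replicate 1 (x axis) against replicate 2 (y axis), on log2(FPKM + 1). Purple points are the 39 genes, grey points the other tested genes and the open diamond is MZT1. Most members lie within 0.3 of the centre, NEDD1 sits at -0.42 and -0.62, MZT1 at -0.88 and -0.86, and CEP41 lies off the diagonal at 0.49 and -0.49.

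Isoform division limits these sums in most members. The 39 genes have 2 to 18 annotated transcripts each, with a median of 6. The leading transcript was the same in all 4 libraries for 32 members, and it held more than 50% of the gene's value in every library for 17. For 11 members the locus in the files is joined with that of another gene, among them CEP63 with ANAPC13, CEP164 with BACE1 and RNF214, CEP76 with PSMG2 and CEP68 with RAB1A, and strand use is not stated, so reads of overlapping genes cannot be told apart there. NEDD1, PLK4, PCNT, CEP350 and PCM1 have loci of their own.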

How the data were processed

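RNA sequencing values of 4 libraries were used, 2 of AURKA knockdown and 2 of control cells. The authors deposited FPKM values for 81493 transcripts per library; the unit is read from the values, since the header names none. Per the submitters' processing notes, bcl2fastq 2.19, HTSeq 0.8.0 and hg38 were used, but no program for the FPKM values is named there. The files' coordinates are those of GRCh37, since they reach 191013719 on chromosome 4, past every GENCODE 29 gene of GRCh38, and are printed 1-based.

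Transcripts were summed by gene ID, and 6 genes without a value in all 4 tables were left out. The 2 tables of a replicate number share row order and transcripts; between numbers 81 transcripts on each side and 1707 loci differ. Limma-trend (limma 3.58.1, R 4.3.3) was fitted on log2(FPKM + 1) to 12137 genes that reached 1 FPKM in 2 or more libraries, both without the replicate number (run) and with it as a term. Tests were two-sided, p-values were adjusted by the Benjamini-Hochberg method over all 12137 genes and the threshold was 0.05. On simulated data with independent noise the fits were checked only for recovering set changes, and the share of false calls was not a criterion. Whole reads were not recovered at the gene level, and no count model was used. Rough depths came from single-transcript genes over 2000 bases with values under 0.05 FPKM, with GENCODE 29 lengths (transcripts without one add no fragments); they and counting errors cover sampling only.

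The members, roles and lists were chosen with earlier results of these data known. Members past the threshold in either fit, and the 12 with the smallest p with the run as a term, are given with full statistics, further members by library values; of other lists, genes past the threshold or else the 2 with the smallest p. Alternatives were other filters, pseudocounts, scalings, transcript sets and leaving out each library. The values of 1 member are not reported here.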

Additional observations from a re-analysis of the deposited data

How the results depend on the processing

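With the run as a term (the replicate number as a block) limma called 1 centrosome gene, NEDD1, and 427 genes in all. Without it the counts were 0 and 0. Across all tested genes, same-numbered libraries deviated together from their group means (r = 0.645), and less so across the 39 members (r = 0.383). The labels do not explain this. The labels do not say that the numbers pair the libraries, and with 2 of them the block leaves 1 residual degree of freedom per gene before moderation. With the block, the count over all genes was 862 under median-of-ratios scaling, 289 with a pseudocount of 0.1, 443 with a filter at 5 FPKM, 417 with transcripts found in all 4 tables and 849 with transcripts of 1000 bases or more (the last 2 chosen after seeing the data), and 0 with no filter on low values; the member count was 1 in these settings except with the pseudocount and with no filter, where it was 0. Without the block, a filter at 5 FPKM called 1 gene in all, and leaving out a library called 6 to 14 genes in all and 0 members. The members' median stayed between -0.05 and 0.05 in every setting run. CEP128 turned from -0.31 to 0.05 in transcripts of 1000 bases or more, without and with the block. Leaving out libraries, CENPJ ranged from -0.38 to 0.003 and STIL from -0.003 to 0.31, both crossing 0 without control replicate 1, which was high for CENPJ and low for STIL. NEDD1 ranged from -0.59 to -0.45 and MZT1 from -0.88 to -0.85 when a library was left out, without passing. Leaving out a library leaves a group of 1, assumed to vary like the other group, so these fits have little power and say nothing of stability, and AURKA passed in each. The filter at 5 FPKM removed 3 members. Low members such as CEP19 are limited by depth.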
